A study of Ammopiptanthus mongolicus with 6 samples.

Results

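RNA from the mesophyll of Ammopiptanthus mongolicus leaves, all wild type, was compared between plants under drought stress for 24 h and untreated plants. The comparison rests on 2 of the 6 libraries, the one labelled drought stress with a time of 24 h and the one labelled with no treatment, chosen by their labels. The other 4 libraries, drought for 1 and 72 h and cold for 1 and 72 h, are used as context for the same unigenes. A unigene is a transcript assembled from the reads, and the files give each an identifier, a length, a count of uniquely assigned reads, a percent coverage and an RPKM value, which is reads per kilobase of its length and per 1000000 reads of the library. CPM, used for shares of a library, is reads per 1000000 without the length. The design text of the series speaks of triplicates, whereas 1 library per side is analysed here, so none of the differences could be set against replicates and no test across samples was made. The sources used here do not say how drought was applied, how many plants went into a library or at what time of day leaves were taken.

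Ammopiptanthus mongolicus is an evergreen broad-leaved legume shrub of cold deserts. In leaves under drought, as background, the hormone abscisic acid closes stomata and switches on genes for protective proteins such as dehydrins and for compatible solutes. Many genes of photosynthesis and growth are turned down. Which of these processes the unigenes below belong to cannot be said, because no gene name or sequence stands beside the identifiers in the files. For the same reason the label of mesophyll could not be checked against marker genes. Unigenes are therefore described by their level, their length, their contig cluster and their values in the other libraries.

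The 24 h drought library held 4300030 uniquely assigned reads and the control 4673249, and the other 4 held 4301593 to 4639933. Of 67955 unigenes, 63532 had at least 1 read in either of the 2 libraries and 4423 had reads in other libraries but in neither of these. Reads were found in both libraries for 54625 unigenes, in the 24 h library alone for 3914 and in the control alone for 4993. These one-sided unigenes had a median of 1 read, at most 61 reads on the drought side and at most 92 on the control side. Calls of higher and lower were made where the 95% counting interval of a unigene's ratio, reads over library totals, lay entirely beyond 2-fold. Against 0 reads, the fewest reads called were 9 in the 24 h library and 10 in the control, so the calls cannot speak for the weakly detected unigenes. The intervals cover counting error only, reads may be copies of 1 molecule made in PCR, and the spread between plants is unknown.

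After 24 h of drought, 443 unigenes were higher than in the control, 0.697% of those with a read, and 403 were lower, 0.634%. The remaining 62686 were not called, and for 12306 of them, 19.4% of the unigenes with a read, the whole interval lay within 2-fold. The quartiles of the log2 ratio over the 29707 unigenes with at least 20 reads were -0.37 and 0.35. With counts under 3 set to 3, the median fold was 4.71 among the higher unigenes and 4.51 among the lower. At least 8-fold differences were found for 58 higher and 51 lower unigenes, and at least 16-fold for 10 in each direction.

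**Figure D1:**
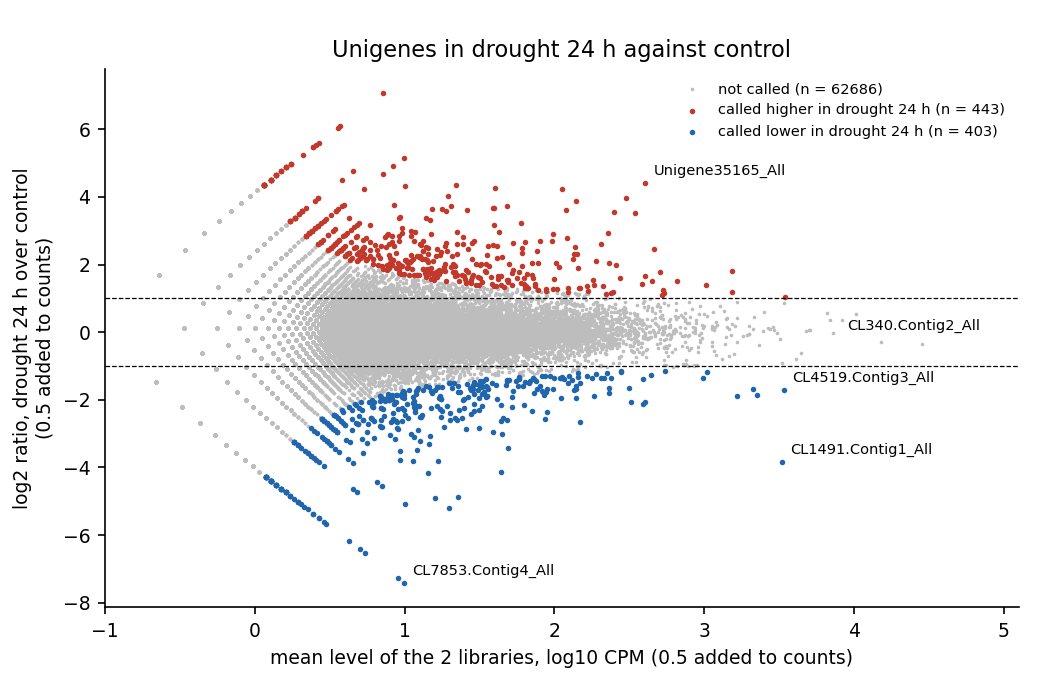
Each point is 1 unigene with a read in either library, placed by its mean level (log10 CPM) and its log2 ratio of drought 24 h over control, both with 0.5 added to counts; dashed lines mark 2-fold. The 443 higher and 403 lower unigenes fan out on both sides, and at low levels a larger ratio is needed for a call.

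The 2 sets were alike in length, share of contigs and depth, and both were chosen by the same rule. The median length was 633 bases for the higher set and 618 for the lower, and contigs of a cluster made up 31.4% and 30.5%, against 677 bases and 29.2% for all unigenes with at least 20 reads. The median number of reads in both libraries together was 95 for the higher and 86 for the lower set. The control had 0 reads for 43 of the higher unigenes, and the 24 h library had 0 reads for 60 of the lower.

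The share of unigenes called depended on their depth. Among unigenes with under 10 reads in the 2 libraries together, 12 of 23919 were higher and 0 were lower. The rule fixed that 0, since the fewest reads called against 0 were 10 in the control and 9 in the 24 h library. At 10 to 99 reads 0.782% were higher and 0.793% lower. At 100 reads or more but under 1000 the shares were 1.61% and 1.33%, and at 1000 reads or more they were 3.10% and 3.02%. The intervals of abundant unigenes are narrower, and the part of depth in this gradient was not tested. Among the 12134 unigenes with at least 100 reads, those under 500 bases were called most often. Of these 1186 short ones, 4.64% were higher and 3.20% lower, whereas the 3 longer classes had 1.06 to 1.57% higher and 1.09 to 1.62% lower. Without the cut at 100 reads the order was reversed. Over all unigenes with a read, 0.493% of those under 500 bases were higher and 0.444% lower. The 3 longer classes then had 0.820 to 1.26% higher and 0.869 to 1.11% lower. Whether a short unigene is a short gene, a fragment or a splice form cannot be told apart from the files.

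**Figure D2:**
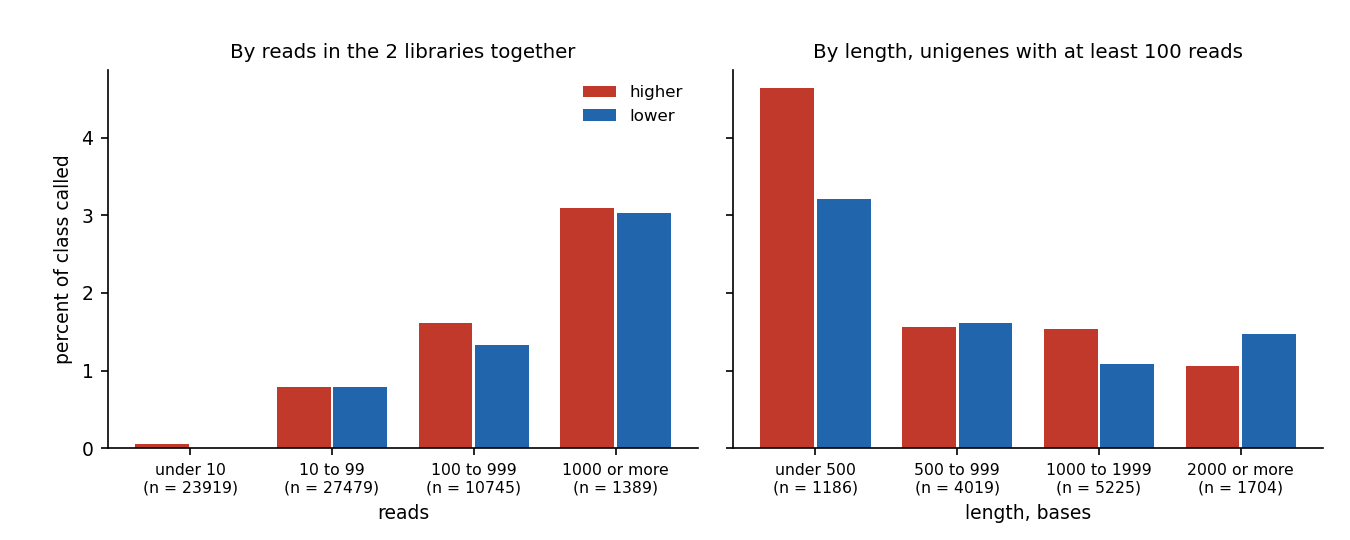
Bars give the percent of unigenes called higher or lower in drought 24 h against control, by reads in both libraries together (left) and by length among unigenes with at least 100 reads (right), with the number of unigenes under each class. The left panel rises from near 0 to about 3.1%, and the unigenes under 500 bases stand out in the right panel with 4.64% higher and 3.20% lower.

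The 10 higher unigenes named here are those whose interval lay farthest above 1. Unigene35165 (3231 bases) stood at 239.8 RPKM (95% Poisson interval 232 to 248) against 11.3 (9.63 to 13.1) in the control, and its reads covered 27.6% of its length in the control and 27.9% in the 24 h library. Among the drought libraries it was highest at 24 h, with a ratio to drought 1 h of 2.004 (1.89 to 2.13) and to drought 72 h of 3.302 (3.08 to 3.54). These counting intervals do not overlap 1, but the unigene was named for its value at 24 h. Unigene9703 (868 bases) had 63.6 RPKM in the control, 237, 737 and 644 under drought for 1, 24 and 72 h, and 316 and 643 under cold for 1 and 72 h. Its ratio to the control was 11.6 (95% interval 10.2 to 13.2). It stayed high, since the 72 h drought and 72 h cold libraries lay close to the 24 h drought level.

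Of the 10, 4 unigenes had a level at 24 h of drought far above every other library. Unigene984 (1798 bases) had 20.1 RPKM in the control, 65.1, 314 and 52.7 under drought for 1, 24 and 72 h, and 39.3 and 26.2 under cold for 1 and 72 h. It was 15.6 (95% interval 13.3 to 18.4) times the control, and the 24 h library was 4.82 (4.38 to 5.32) times the 1 h and 5.95 (5.37 to 6.603) times the 72 h drought library. The other 5 libraries lay between the control and the 1 h drought library, and the 24 h library lay above them all. Unigene36501 (524 bases) had 21.6 RPKM in the control, 77.6, 409.6 and 76.1 under drought for 1, 24 and 72 h, and 53.3 and 31.9 under cold for 1 and 72 h. Its ratio to the control was 18.9 (95% interval 14.3 to 25.5), and the ratio to drought 72 h was 5.38 (4.59 to 6.34). The order of the libraries was like that of Unigene984, with cold 72 h next to the control at the bottom. Unigene45894 (649 bases) had 5.93 RPKM in the control, 16.8, 117 and 19.6 under drought for 1, 24 and 72 h, and 11.95 and 8.24 under cold for 1 and 72 h, a ratio of 19.7 (95% interval 12.3 to 33.6). For Unigene46663 (449 bases) the values were 4.29 RPKM in the control, 15.001, 93.2 and 8.16 under drought for 1, 24 and 72 h, and 9.38 and 6.21 under cold for 1 and 72 h, a ratio of 21.7 (95% interval 11.2 to 48.3). Its ratio to drought 72 h was 11.4 (6.94 to 20.05). All 4 were named for their value at 24 h, which raises their ratios to the other drought libraries. They fell into the pattern of a single high library, and with 1 library per time a short peak at 24 h and a property of that library cannot be told apart.

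Another pair had few or no reads in the control. Unigene43061 (254 bases) had 2 reads in the control, 20, 82 and 28 under drought for 1, 24 and 72 h, and 5 and 0 under cold for 1 and 72 h. The ratio to the control was 44.6 (95% interval 11.9 to 374), and 29.7 with the 2 reads of the control set to the floor of 3. CL6604.Contig2 (2548 bases) had 0 reads in the control, 0, 61 and 158 under drought for 1, 24 and 72 h, and 32 and 10 under cold for 1 and 72 h. With the 0 reads of the control set to the floor of 3 it was 22.1-fold higher. The lower 95% bound of the ratio, without the floor, was 17.4. It was not at its highest at 24 h, since the 72 h drought library had 2.4004 (1.78 to 3.28) times its level.

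The other 2 were contigs with different behaviour in cold. CL8238.Contig1 (1105 bases) had 35.4 RPKM in the control, 168, 415 and 199 under drought for 1, 24 and 72 h, and 56.8 and 3.37 under cold for 1 and 72 h. It was 11.7 (95% interval 10.1 to 13.7) times the control at 24 h, while cold 72 h was the lowest of all 6 libraries. CL6046.Contig1 (657 bases) had 27.03 RPKM in the control, 138, 399 and 75.4 under drought for 1, 24 and 72 h, and 39.5 and 146 under cold for 1 and 72 h, a ratio to the control of 14.7 (95% interval 11.8 to 18.7). Here cold 72 h was the second highest library.

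CL6046 was also the cluster with the most contigs called in a single direction, all 4 of them higher. The contigs of a cluster are similar sequences between which uniquely assigned reads may be split, so a single contig is uncertain. The sum over the cluster does not depend on that split, but it may lack reads that match more than 1 contig. Contig2 (357 bases) had 18 reads in the control, 69, 206 and 37 under drought for 1, 24 and 72 h, and 29 and 99 under cold for 1 and 72 h, a ratio of 12.4 (95% interval 7.68 to 21.4). For Contig4 (991 bases) the counts were 12 reads in the control, 91, 142 and 37 under drought for 1, 24 and 72 h, and 35 and 88 under cold for 1 and 72 h, a ratio of 12.9 (95% interval 7.14 to 25.5). Contig3 (1093 bases) rested on few reads, 1 read in the control, 13, 16 and 20 under drought for 1, 24 and 72 h, and 9 and 56 under cold for 1 and 72 h, and its ratio was 17.4 (95% interval 2.701 to 729), or 5.80 with the 1 control read set to the floor of 3. Contigs 1, 2 and 4 were highest at 24 h of drought, while Contig3 was highest at 72 h of cold. Summed over the cluster there were 114 reads in the control, 564, 1490 and 324 under drought for 1, 24 and 72 h, and 190 and 656 under cold for 1 and 72 h. The sum was 14.2 (95% interval 11.7 to 17.3) times the control. Most of it was Contig1, with 1126 of the 1490 reads at 24 h and 83 of the 114 in the control. In the 24 h library the reads of Contig3 and Contig4 covered 15.4% and 9.49% of their lengths.

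**Figure D3:**
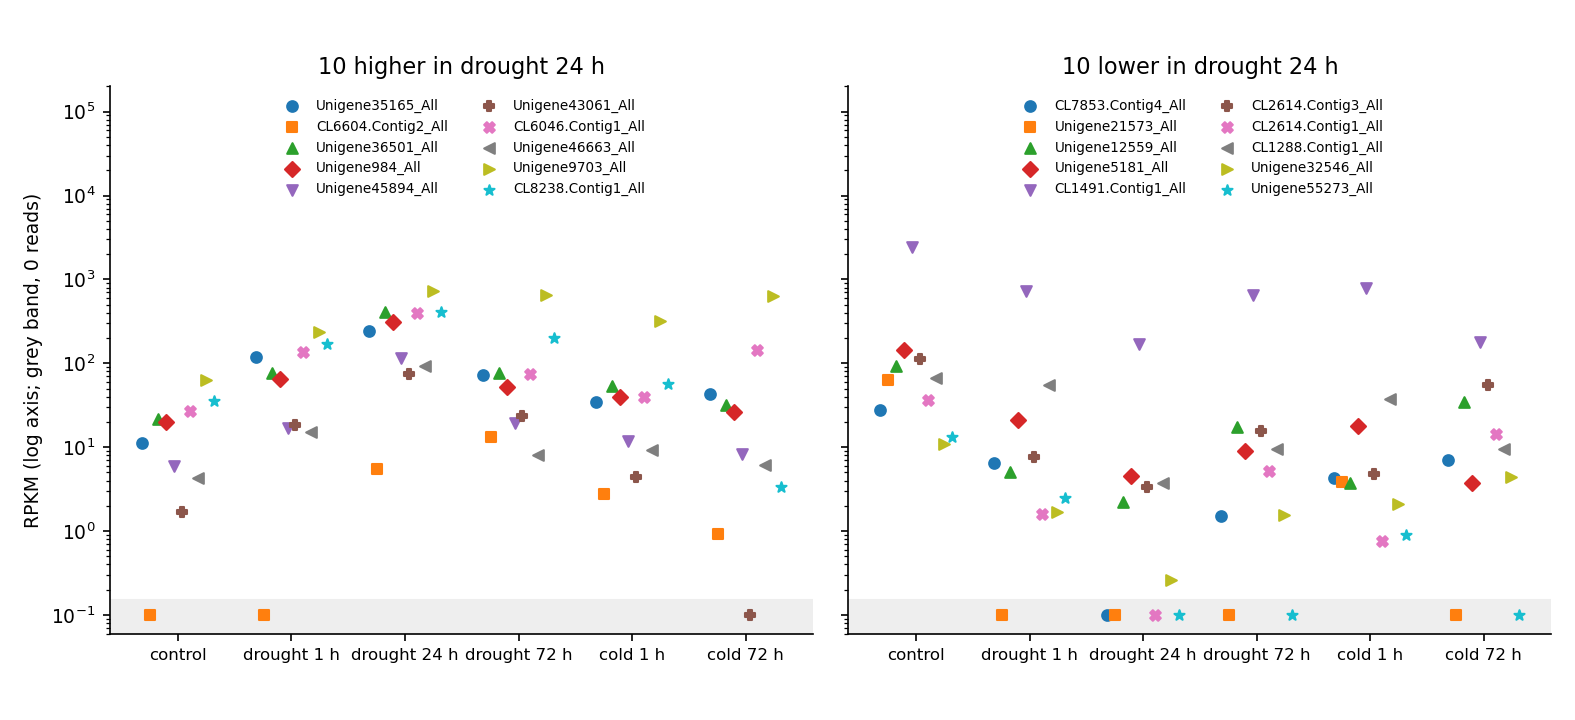
RPKM on a log axis of the 10 higher (left) and the 10 lower (right) unigenes with the firmest bound, 1 symbol per unigene, in each of the 6 libraries; symbols in the grey band had 0 reads. On the left 9 of 10 unigenes are at their highest at drought 24 h, with CL6604.Contig2 highest at 72 h, and on the right all 10 are at their highest in the control; the symbols were chosen on the control and drought 24 h libraries.

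Among the 10 lower unigenes with the firmest bound, CL1491.Contig1 (2540 bases) was by far the most abundant. It had 2423 RPKM in the control, 723, 170.02 and 646 under drought for 1, 24 and 72 h, and 798 and 181 under cold for 1 and 72 h. The 24 h level was 14.3-fold lower (95% interval 13.6 to 14.9) than the control, and 4.25 (4.04 to 4.47) times lower than at 1 h and 3.797 (3.61 to 3.997) times lower than at 72 h of drought. It was lower than the control in all 5 stress libraries and lowest at 24 h of drought and 72 h of cold. Its reads covered 53.6% of its length in the control and 53.7% in the 24 h library, and the RPKM is spread over the uncovered bases too. CL1288.Contig1 (1249 bases) had 66.99 RPKM in the control, 54.5, 3.72 and 9.49 under drought for 1, 24 and 72 h, and 37.1 and 9.49 under cold for 1 and 72 h. At 24 h it was 17.99-fold lower (95% interval 11.5 to 29.8) than in the control. Its 1 h drought level lay near the control, with a ratio of 1 h over 24 h of 14.6 (9.301 to 24.3). Both unigenes were named for their low value at 24 h, which raises their ratios to the other drought libraries, and each time is 1 library.

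A group of short unigenes was already low in the 1 h libraries. Unigene12559 (418 bases) had 181 reads in the control, 9, 4 and 34 under drought for 1, 24 and 72 h, and 7 and 62 under cold for 1 and 72 h, and at 24 h it was 41.6-fold lower (95% interval 15.98 to 154). CL2614.Contig3 (277 bases) had 145 reads in the control, 9, 4 and 20 under drought for 1, 24 and 72 h, and 6 and 65 under cold for 1 and 72 h, and was 33.4-fold lower (95% interval 12.8 to 124). Its sister CL2614.Contig1 (291 bases) had 50 reads in the control and 2, 0 and 7 under drought for 1, 24 and 72 h. Under cold for 1 and 72 h it had 1 and 18 reads. At 24 h it was 15.3-fold lower against the floor (lower 95% bound without the floor 12.02). These 3 shared 1 order of libraries, with the control highest, cold 72 h second, drought 72 h after it, and the 24 h drought and both 1 h libraries at the bottom. CL2614.Contig1 and CL2614.Contig3 are contigs of the same cluster and may share sequence.

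Unigene5181 (310 bases) had 206 reads in the control, 28, 6 and 13 under drought for 1, 24 and 72 h, and 25 and 5 under cold for 1 and 72 h, and was 31.6-fold lower (95% interval 14.3 to 87.1) at 24 h. Unlike the 3 above it was also low at 72 h of cold. Unigene32546 (1786 bases) had 91 reads in the control, 13, 2 and 13 under drought for 1, 24 and 72 h, and 17 and 34 under cold for 1 and 72 h, and was 41.9-fold lower (95% interval 11.3 to 351). With its 2 reads at 24 h set to the floor of 3 it was 27.9-fold lower.

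The control alone gave reads for the remaining 3 when set against the 24 h library. CL7853.Contig4 (718 bases) had 92 reads in the control and 20, 0 and 5 under drought for 1, 24 and 72 h. Under cold for 1 and 72 h it had 14 and 22 reads. It was 28.2-fold lower against the floor (lower 95% bound without the floor 22.5). Unigene21573 (285 bases) had 84 reads in the control and 0, 0 and 0 under drought for 1, 24 and 72 h. Under cold for 1 and 72 h it had 5 and 0 reads. It was 25.8-fold lower against the floor (lower 95% bound without the floor 20.5). Unigene55273 (741 bases) had 46 reads in the control and 8, 0 and 0 under drought for 1, 24 and 72 h. Under cold for 1 and 72 h it had 3 and 0 reads. It was 14.1-fold lower against the floor (lower 95% bound without the floor 11.02). Unigene21573 was at 0 in 4 of the 5 stress libraries, so its reads came almost entirely from the control library, and whether it is a feature of drought or of that library cannot be told apart.

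On the other side, the unigenes with the most reads at 24 h and 0 in the control were CL6604.Contig2, given above, Unigene22627 and Unigene35166. Unigene22627 (479 bases) had 0 reads in the control and 26, 31 and 0 under drought for 1, 24 and 72 h. Under cold for 1 and 72 h it had 5 and 0 reads. It was 11.2-fold higher against a floor of 3 counts (lower 95% bound of the ratio without the floor 8.6004). It was present at 1 and 24 h of drought and at 0 in the 72 h library of each stress. Unigene35166 (1052 bases) had 0 reads in the control and 1, 30 and 9 under drought for 1, 24 and 72 h. Under cold for 1 and 72 h it had 3 and 12 reads. It was 10.9-fold higher against a floor of 3 counts (lower 95% bound of the ratio without the floor 8.31). Its 30 reads lay on 12.7% of its length.

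Between the 2 libraries the losses of single unigenes summed to 146273 CPM, as did the gains. The 10 largest losses made up 22.0% of what was lost and the 10 largest gains 13.3% of what was gained, so most of both lay in other unigenes. The unigenes called higher made up 18.1% of the gain and those called lower 22.0% of the loss. The 403 lower unigenes went from 4.44% of the reads in the control to 1.22% at 24 h, and 4 of them made up 43.9% of that loss, going from 1.81% to 0.4004%. The other 399 went from 2.63% to 0.822%. The 443 higher unigenes went from 1.18% to 3.83%, and the 4 with the largest gain made up 23.6% of that gain. The loss among called unigenes was thus more concentrated in 4 of them than the gain.

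The 5 largest losses were those of CL340.Contig2, CL1491.Contig1, CL4519.Contig3, Unigene8105 and CL1268.Contig2. CL4519.Contig3 (834 bases) had 5204 CPM in the control, 2358, 1592 and 3062 under drought for 1, 24 and 72 h, and 2821 and 1797 under cold for 1 and 72 h, and was 3.27-fold lower (95% interval 3.18 to 3.36) at 24 h. CL1268.Contig2 (1537 bases) had 3548 CPM in the control, 1719, 978 and 1638 under drought for 1, 24 and 72 h, and 2062 and 1005 under cold for 1 and 72 h, and was 3.63-fold lower (95% interval 3.51 to 3.75). Like CL1491.Contig1, both were below the control in all 5 stress libraries and lowest at 24 h of drought, with cold 72 h next. CL340.Contig2 (5753 bases), the unigene with the most reads, had 31897 CPM in the control, 22883, 24946 and 24877 under drought for 1, 24 and 72 h, and 16458 and 42041 under cold for 1 and 72 h. At 24 h its ratio to the control was 0.782 (95% interval 0.776 to 0.788), inside 2-fold although the change was -6951 CPM. Unigene8105 (6720 bases) had 16806 CPM in the control, 13398, 13781 and 14501 under drought for 1, 24 and 72 h, and 10421 and 16256 under cold for 1 and 72 h, a ratio of 0.82000 (95% interval 0.811 to 0.829). Both were within 2-fold of the control, and cold 1 h was their lowest library.

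Of the 5 largest gains, 1 lay beyond 2-fold. Unigene2643 (808 bases) had 2284 CPM in the control, 3129.9, 4693 and 4137 under drought for 1, 24 and 72 h, and 3864 and 1626 under cold for 1 and 72 h, a ratio of 2.05 (95% interval 2.01 to 2.103). Its lower bound was close to 2, and its level at 72 h of cold was under that of the control. Unigene3445 (5339 bases) had 8362 CPM in the control, 7911, 12191 and 11225 under drought for 1, 24 and 72 h, and 8307 and 6898 under cold for 1 and 72 h, a ratio of 1.46 (95% interval 1.44 to 1.48). Unigene30567 (1655 bases) had 5329 CPM in the control, 6317, 7922 and 7365 under drought for 1, 24 and 72 h, and 7765 and 5708 under cold for 1 and 72 h, a ratio of 1.49 (95% interval 1.46 to 1.51). In both, the 24 and 72 h drought libraries lay above the control and above drought 1 h. Unigene852, the longest at 14618 bases, had a ratio of 1.28 (95% interval 1.26 to 1.29), and CL5270.Contig1 (1425 bases) had one of 1.82 (95% interval 1.78 to 1.86). These ratios had narrow counting intervals that excluded 1, which says nothing of how far such abundant transcripts vary between plants.

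**Figure D4:**
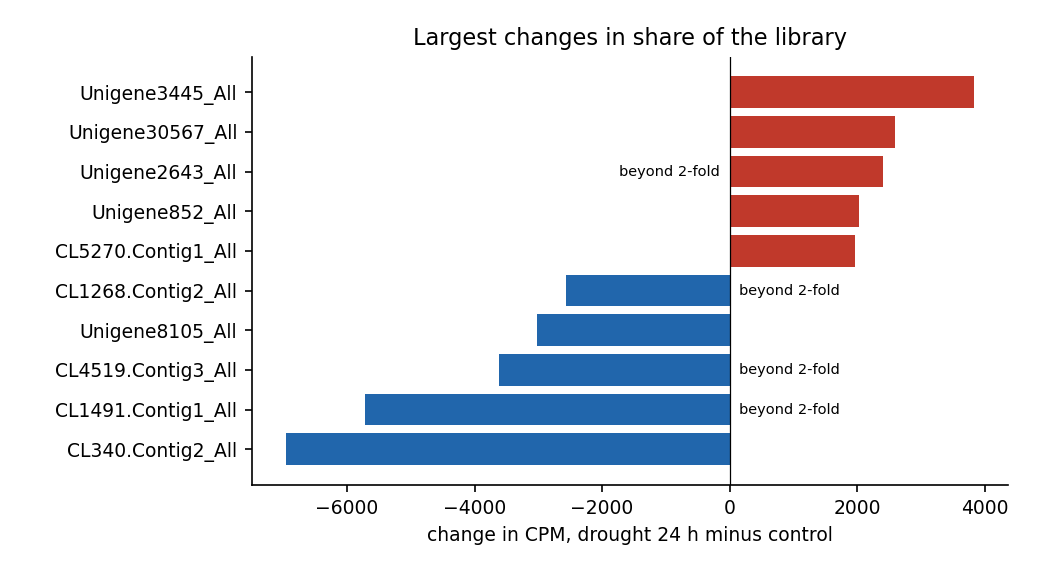
Bars give the change in CPM, drought 24 h minus control, for the 5 largest gains and the 5 largest losses; the words beyond 2-fold mark the unigenes called. The largest loss, of CL340.Contig2, and the largest gain, of Unigene3445, were both within 2-fold.

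The 5 most abundant unigenes of the control by RPKM, 1 of which is CL4519.Contig3, were mostly lower at 24 h. Unigene29515 (507 bases) had 8567 RPKM in the control, 6354, 4582 and 6591 under drought for 1, 24 and 72 h, and 8146 and 5785 under cold for 1 and 72 h, a ratio of 0.535 (95% interval 0.522 to 0.548) at 24 h. Unigene14872 (629 bases) had 8319.9 RPKM in the control, 6488, 4795 and 6567 under drought for 1, 24 and 72 h, and 7474 and 6079 under cold for 1 and 72 h, a ratio of 0.576 (95% interval 0.564 to 0.589). Unigene600 (745 bases) had 7284 RPKM in the control, 6199, 4726 and 5824 under drought for 1, 24 and 72 h, and 6449 and 4089 under cold for 1 and 72 h, a ratio of 0.649 (95% interval 0.636 to 0.662). None of these 3 was called, and in Unigene29515 and Unigene14872 the 24 h library was the lowest of the 6. Unigene4153 (711 bases) went the other way, with 6878 RPKM in the control, 5126, 7175 and 9661 under drought for 1, 24 and 72 h, and 6256 and 3214 under cold for 1 and 72 h. Its ratio at 24 h was 1.04 (95% interval 1.02 to 1.06), and drought 72 h was its highest library.

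Reads were summed over the contigs of a cluster, so that the sum does not depend on how uniquely assigned reads fell among them. A read that matches more than 1 contig may be missing from a unique count, and the sum does not bring it back. Of 8813 clusters with a read, 81 were higher at 24 h, 0.919%, and 72 were lower, 0.817%. Called contigs came from 123 clusters on the higher side and 109 on the lower, of which 49 and 42 did not pass as a sum. In turn 7 higher and 5 lower clusters passed as a sum without any called contig. Sister contigs that were not called themselves and had at least 20 reads lay on the same side as the called contig in 61 of 87 cases, 70.1%, for the higher and 51 of 78, 65.4%, for the lower. Among all 8682 contigs with at least 20 reads, 49.2% lay above 1 and 50.8% below. Sisters thus tended to the same side as the called contig, as a description, since contigs of a cluster may share sequence.

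CL1491 was the 1 cluster with contigs called in both directions. Beside CL1491.Contig1, Contig4 (943 bases) had 4 reads in the control, 17, 29 and 20 under drought for 1, 24 and 72 h, and 7 and 3 under cold for 1 and 72 h, a ratio of 7.88 (95% interval 2.77 to 30.8). Contig3 had 35 reads in the control, 45, 54 and 41 under drought for 1, 24 and 72 h, and 30 and 7 under cold for 1 and 72 h, a ratio of 1.68 (95% interval 1.08 to 2.64), and Contig2 had 54 reads in the control, 64, 37 and 56 under drought for 1, 24 and 72 h, and 65 and 11 under cold for 1 and 72 h, a ratio of 0.745 (95% interval 0.476 to 1.15). The reads gained by the small contigs were few beside those lost by Contig1, so the summed cluster was 13.4-fold lower (95% interval 12.8 to 14.1). In CL5627 all 3 contigs were lower, and the summed cluster had 240 reads in the control, 86, 37 and 41 under drought for 1, 24 and 72 h, and 101 and 50 under cold for 1 and 72 h. At 24 h it was 5.97-fold lower (95% interval 4.21 to 8.68), and the drought 72 h library had a sum near that of 24 h. In CL4519, Contig1 (1072 bases) had 320.4 RPKM in the control, 215, 126 and 175 under drought for 1, 24 and 72 h, and 212 and 184 under cold for 1 and 72 h, and was 2.54-fold lower (95% interval 2.31 to 2.79). Contig2 was not called, with a ratio of 0.899 (95% interval 0.667 to 1.21). The reads of Contig1 and Contig3 covered 6.44% and 47.5% of their lengths in the 24 h library.

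CL1491.Contig1 and CL4519.Contig3 were not alone in having much of their length without reads. Of 1132 unigenes with at least 500 reads in each library, 84 had under 60% of their length covered in both. Of these 84, 5 were lower, 5.95%, and 2 were higher, 2.38%, against 1.43% and 1.53% of the other 1048. These are small counts, and the part of coverage in them was not tested. CL1491.Contig1, CL4519.Contig3 and its sister CL4519.Contig1 are among the 5 lower, so that share is not independent of the unigenes named above.

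In the drought libraries of 1 and 72 h, the median levels of both sets lay between those of the control and of the 24 h library. The median level of the higher set was 5.43 RPKM in the control, 13.6, 27.2 and 16.2 under drought for 1, 24 and 72 h, and 12.2 and 7.44 under cold for 1 and 72 h. For the lower set the medians were 26.9 RPKM in the control, 15.9, 4.37 and 8.77 under drought for 1, 24 and 72 h, and 12.3 and 12.1 under cold for 1 and 72 h. The sets were chosen on the control and 24 h libraries, so the gap between these 2 was fixed by the choice. Single members could lie beyond them. Cold 72 h was the lowest library for 158 of the 443 higher unigenes and the highest for 98 of the 403 lower ones. The control, with ties counted for it, was lowest for 254 and highest for 251. How often cold 72 h was the extreme over all unigenes was not counted, so its counts are not read as a trait of the sets. Over all unigenes, drought 72 h against cold 72 h had 3.06% called higher and 3.24% lower. By median, among the libraries other than the control and drought 24 h, the higher set stood highest in drought 72 h and the lower set lowest there.

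Compared directly, drought 24 h was called above drought 1 h for 92 of the 443 higher unigenes, 20.8%, where 0.228% of all unigenes were called. It was called above drought 72 h for 55 of them, 12.4%, against 0.175% of all. Of the 403 lower unigenes, 24 h was called below 1 h for 121, 30.0%, against 0.485%, and below 72 h for 36, 8.93%, against 0.163%. The opposite was called for 1 higher unigene against 1 h and for 1 lower unigene against 72 h. Since the 24 h library itself chose the sets, these shares are raised by the choice. The shares of all unigenes include weakly detected ones, which are rarely called, and the part of depth in the gap was not tested. Fewer members of both sets differed from 72 h than from 1 h, and whether that difference exceeds the spread between plants was not tested.

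Libraries with no part in choosing the sets were compared with each other. Between drought 72 h and cold 1 h, which are neither the control nor the 24 h library, 259 of the 368 higher unigenes with at least 20 reads were higher in drought 72 h, 70.4%. Of all 30453 unigenes at that depth 43.9% were. The median log2 ratio was 0.38 for the higher set and -0.041 for all. Of the 313 lower unigenes with at least 20 reads, 237 were lower in drought 72 h than in cold 1 h, 75.7%, against 56.1% of all, with a median of -0.42. By the 2-fold rule, 22 of the 443 were higher in drought 72 h and 3 lower, against 0.138% and 0.196% of all unigenes. Of the 403, 28 were lower and 4 higher. The shares of all unigenes include weakly detected ones, which are rarely called, and the part of depth in the gap was not tested. Both sets therefore leaned, in drought 72 h against cold 1 h, in the direction they had at 24 h against the control. Drought 72 h and cold 1 h differ in both stress and time, and the part of each was not tested.

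Drought 1 h against cold 1 h gave another picture. The higher set leaned weakly the same way, with 205 of 355, 57.7%, higher in drought, against 46.2% of all unigenes, and a median log2 ratio of 0.17. The lower set leaned the opposite way, with 131 of 331, 39.6%, lower in drought against 53.8% of all, and a median of 0.19. By the 2-fold rule 33 of the 403 were higher in drought 1 h than in cold 1 h and 9 lower. Of all unigenes, weakly detected ones included, 0.33% and 0.128% were called. CL1288.Contig1, a member of the lower set, had 54.5 RPKM in drought 1 h and 37.1 in cold 1 h, a ratio inside 2-fold. The unigenes low at 24 h of drought were thus, as a set, not lower after 1 h of drought than after 1 h of cold.

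Against cold 72 h, drought 72 h was higher for 248 of 348 of the higher set, 71.3%, but also for 62.4% of all unigenes. It was lower for 196 of 310 of the lower set, 63.2%, against 37.6% of all. By the 2-fold rule 127 of the higher set were higher in drought 72 h and 24 lower. Of the lower set 105 were lower and 27 higher. Of all unigenes, weakly detected ones included, 3.06% were called higher and 3.24% lower.

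**Figure D5:**
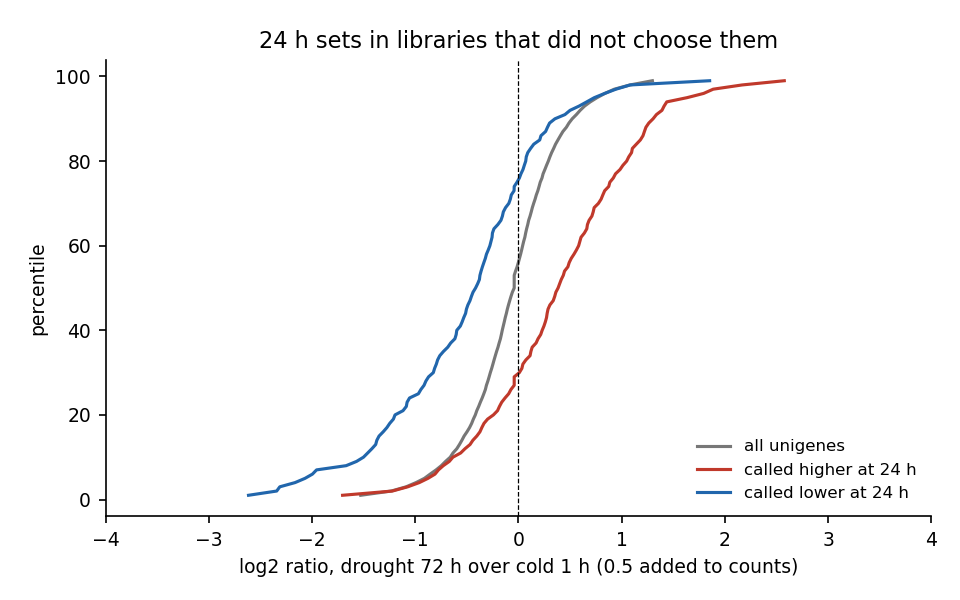
Percentiles of the log2 ratio of drought 72 h over cold 1 h (0.5 added to counts) for the unigenes called higher at 24 h (red, n = 368), those called lower (blue, n = 313) and all unigenes with at least 20 reads in those libraries (grey, n = 30453). The red line lies to the right of the grey one over most of its length, with a median of 0.38, and the blue line to the left, with a median of -0.42.

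The unigenes next to the bound of 2-fold had lower interval ends that differ little. Just inside on the higher side were Unigene14955, with a ratio of 2.27 (95% interval 2.002 to 2.59), and Unigene17218, with one of 4.66 (95% interval 2.005 to 12.6). Just outside were Unigene31480, with 2.36 (95% interval 1.9997 to 2.79), and Unigene31938, with 2.39 (95% interval 1.9997 to 2.86). On the lower side Unigene38509 was 4.37-fold lower (95% interval 2.01 to 10.8) and CL3010.Contig2 was 3.83-fold lower (95% interval 2.01 to 7.91), both just inside. CL4033.Contig1 was 2.91-fold lower (95% interval 1.995 to 4.33) and Unigene1978 was 2.41-fold lower (95% interval 1.99 to 2.92), both just outside. On the higher side the ratios inside and outside the bound overlap, and on the lower side the 2 inside differ more than the 2 outside.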

How the data were processed

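Leaf mesophyll libraries were made from Trizol-extracted RNA with the Illumina TruSeq kit, per the labels' protocols. For every library the authors deposited, per the file headers, a count of unique reads, a percent coverage of the length and an RPKM for each unigene. The submitters' processing notes name Bowtie 0.12.2. Assembler, filters and use of strand: not given in the sources used here. Counts summed to the total in each header, the RPKM the authors deposited was their count per kilobase and 1000000 reads of that total (largest relative deviation 8.68e-09), and unigenes absent from a table have 0 reads.

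Ratios of reads over library totals were given exact 95% Clopper-Pearson intervals, conditional on the sum of both counts (scipy 1.17.1), and called beyond 2-fold. Folds against 0 used a floor of 3 counts per library, 0.642 to 0.698 CPM. Members, lists and the naming rule were chosen with earlier results of these data known. Named unigenes are the 10 firmest in each direction, the 5 largest gains and losses, the 3 largest against 0, the clusters with opposite or most calls, those next to the bound and the 5 most abundant. Gene lists could not be applied. Alternatives used edgeR 4.0.16, DESeq2 1.42.0 (scaling factors only, R 4.3.3), and the rest Python 3.11.15 with pandas 2.3.3, numpy 2.4.6 and matplotlib 3.10.9. The coefficient of variation in 2 of the alternatives is an assumption, added in quadrature to the log interval.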

Additional observations from a re-analysis of the deposited data

Results flagged for a closer look

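Calls against the control had opposite signs at different times of drought for 2 unigenes, named after their values were seen. With 1 library per time that difference was not tested. CL566.Contig1 (791 bases) was higher than the control at 24 h with a ratio of 5.98 (95% interval 3.02 to 13.2), after a lower value at 1 h. It had 10 reads in the control and 0, 55 and 41 under drought for 1, 24 and 72 h. Under cold for 1 and 72 h it had 40 and 30 reads. Its call at 1 h thus rested on 10 control reads against 0. It is a single contig, and no sum over its cluster is given here. Unigene494 (1159 bases) was lower at 24 h, with a ratio of 0.389 (95% interval 0.337 to 0.448), after a higher value at 1 h. It had 741 reads in the control, 2262, 265 and 270 under drought for 1, 24 and 72 h, and 265 and 210 under cold for 1 and 72 h. Each of these comparisons uses the same control library.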

How the results depend on the processing

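No paired analysis was possible because each group has 1 library. TMM, upper-quartile and median-of-ratios scaling, totals without the 100 most abundant unigenes (chosen after seeing the data) and a minimum of 10 reads kept each count of unigenes and clusters within 1.5 times, at 413 to 453 higher and 394 to 433 lower unigenes. The excess of higher over lower turned under upper-quartile scaling (419 and 432) and median-of-ratios scaling (413 and 433), so it depends on the scaling. Higher and lower unigenes numbered 188 and 172 at the stricter confidence level, 2141 and 2202 where the ratio was at least 2 and its interval excluded 1, and 74 and 55 beyond 4-fold. They numbered 223 and 190 if plants are assumed to vary with a coefficient of 0.2, 83 and 64 if with 0.4, 2525 and 2792 with the ratio of RPKM + 1, and 263 and 241 for unigenes of at least 500 bases. Higher and lower clusters numbered 43 and 41 at the stricter level, 336 and 283 with the interval excluding 1, 17 and 12 beyond 4-fold, 40 and 36 at a coefficient of 0.2 and 14 and 14 at 0.4. The share of the higher set that was higher in drought 72 h than in cold 1 h was 57.7% with drought 1 h in place of 72 h. For the lower set the share that was lower was 70.3% under upper-quartile scaling and 63.2% with cold 72 h in place of cold 1 h. It turned to 39.6% with drought 1 h in place of 72 h, a different pair of libraries. The 20 unigenes with the firmest bound kept their call under the 11 settings run for them, which their choice by that bound largely fixed. Depth limits the calls to unigenes with about 9 reads or more, and the spread between plants stays unmeasured.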
